A study of Mus musculus with 12 samples.

Results

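The genes described here are the interleukin 1 axis and the inflammatory mediators that lie around it: the ligands Il1a, Il1b and Il33, the antagonist Il1rn, the receptors Il1r1 and Il1rl1, the cytokines Il6 and Lif, and the enzymes Nos2 and Ptgs2. They were chosen by gene symbol, and each gene was read from its brightest probe set, with dim genes kept. Of the 10 genes, 8 were measured, among 19938 genes in all, each by 1 probe set. Il1r1 and Il1rl1 were not analysed here. The arrays compared wild-type (WT) mouse embryonic fibroblasts, cultured connective-tissue cells of embryonic origin, with fibroblasts labelled MLL1-KO (KO), a knockout, by its label, of the histone H3 lysine 4 methyltransferase MLL1, the product of Kmt2a. Each genotype was sampled at 18 h (CT18) and at 30 h (CT30) after a serum shock, which sets the circadian clocks of cultured cells to a common phase. All 4 groups had the same treatment: culture in DMEM with 5% FBS and 5% NCS, a 2 h shock with 50% horse serum, and about 100 ng of total RNA per labelling reaction. Each group held 3 arrays, 12 in all. The labels name no strain, allele or embryo, so the deleted part of Kmt2a and the number of independent cell lines per genotype are not known here. The spread behind the p-values is that among the 3 arrays within each group, pooled over the 4 groups. It is also drawn toward the spread of other genes of similar intensity. The spread among arrays may be technical only.

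Interleukin 1 alpha and beta act through the receptor IL1R1 and its accessory chain IL1RAP, which recruit the adaptor MYD88 and lead to NF-kB and MAP kinase activity. The product of Il1rn occupies IL1R1 without recruiting the accessory chain, and so blocks the ligands. Interleukin 33 is a nuclear protein of stromal cells that acts outside the cell on IL1RL1. In fibroblasts, interleukin 1 is a classical inducer of Il6 and Lif, 2 cytokines that signal through the shared receptor chain gp130, of Ptgs2 (COX-2), which makes the precursor of the prostaglandins, and, with other cytokines, of Nos2, the inducible nitric oxide synthase.

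The antagonist was the member that differed most in size. Il1rn was at least 25.2-fold lower in KO at 18 h and at least 25.0-fold lower at 30 h; these are bounds, because the KO signal lay at the level of unexpressed genes, and they set each KO array at 239.0, the 95th percentile of 1194 odorant and pheromone receptor genes. Il6 was 2.29-fold and 4.25-fold lower, and Il33 1.48-fold and 1.36-fold lower. Ptgs2 was 3.84-fold higher at 18 h and 1.94-fold higher at 30 h, and Lif 2.85-fold and 2.41-fold higher. Il1a was higher at both times, but all its group means lay in the range of unexpressed genes, so no fold is given. Nos2 was 2.36-fold higher in KO at 18 h and 1.51-fold lower at 30 h. Il1b was not called at either time. The other folds were taken on the scale of log2(intensity + 16), which understates changes of dim genes.

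A gene was called where the adjusted p of limma, a linear model fitted to all 19938 genes, was under 0.05. At 18 h, 7 of the 8 measured members were called, 4 higher and 3 lower, where 45.5% of all genes were called, 20.1% higher and 25.4% lower. At 30 h, 7 of 8 were called, 3 higher and 4 lower, against 39.2% of all genes, 18.2% higher and 21% lower. Averaged over both times, 7 of 8 were called, against 50.4% of all genes. The arrays of KO and WT did not overlap for 7 of 8 members at each time, which was so for 52% of all genes at 18 h and for 48.8% at 30 h. The split of all calls at 18 h depended on scaling: 4005 genes were higher and 5058 lower as deposited. It turned to 4829 higher and 4510 lower with quantile scaling, and to 4668 and 4343 with array medians set equal. With cyclic loess it narrowed to 4602 higher and 4754 lower but did not turn. Genotype differences were frequent on these arrays as a whole, and the members' count is read against that. The median log2 difference of the members was 0.58 at 18 h and -0.25 at 30 h, beside -0.01 and 0.03 over all genes. These summaries pool genes that differed in opposite directions.

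The arrays had median intensities between 273.3 and 311.8, and arrays of one group correlated with r from 0.989 to 0.997. The first principal component held 86.8% of the variance and separated the genotypes; the second held 7.11% and separated the times. On the second component, KO 18 h array 1 (-9.34) lay between the other KO 18 h arrays (-25.2 and -24.9) and the KO 30 h arrays (20.0 to 24.6), so the members were also fitted without it. All of their calls at 18 h, with time in KO and for the difference of time effects stayed on the same side of the threshold in that fit, and the values that moved most are given beside those with it. As a mark of unexpressed genes, 1194 odorant and pheromone receptor genes had a median intensity of 81.4 and a 95th percentile of 239.0; signals at or below the latter are called dim here. Kmt2a differed by -0.19 at 18 h (limma adjusted p = 0.132) and by -0.57 at 30 h (limma adjusted p = 0.000109), and where its probes lie relative to the deletion is not known, so it does not check the labels. Of the fibroblast markers, Thy1, Fap and Lum were dim in all 4 groups, while the list summed to 37746 to 42927 in every array. That sum is weighted to the brightest markers and can hide opposite changes. Of the 11 markers, 3 were called higher and 6 lower in KO at 18 h, where 20.1% and 25.4% of all genes were. At 30 h, 4 were called higher and 5 lower, against 18.2% and 21% of all genes. Of 11 macrophage and blood cell markers, 7 were dim in all groups, among them Ptprc, Adgre1 and Csf1r. In bulk RNA, fewer cells of a type and less RNA per cell cannot be told apart.

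**Figure D1:**
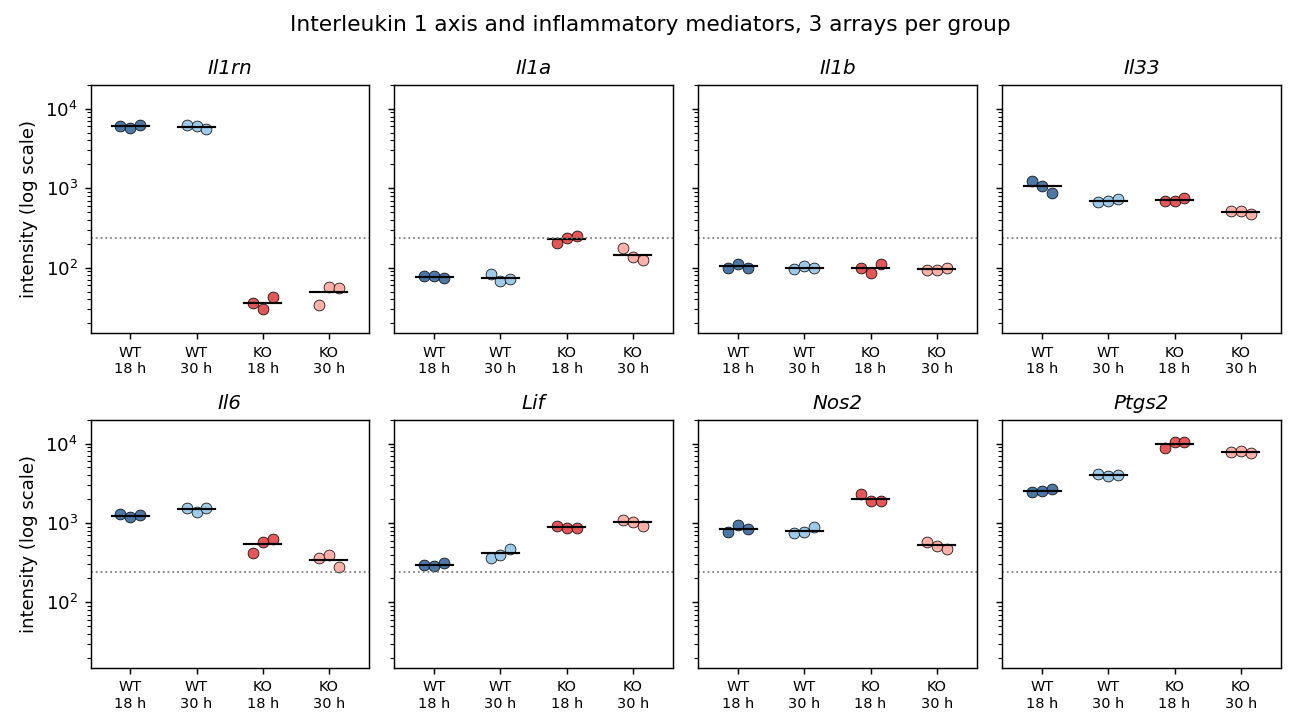
Intensity (log axis) of each of the 8 measured genes on each of the 12 arrays, by genotype and hours after the serum shock. Points are arrays, the black line is the mean of 3 and the dotted line is 239.0, the 95th percentile of receptor genes. Il1rn lay between 5626 and 6250 in WT and between 29.8 and 56.5 in KO, Il1b lay under the dotted line throughout, and Nos2 changed sides between the times.

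The 5′ flanks of the 5 members with the largest genotype difference averaged over the times are shown because Il1rn and Il6, which were lower in KO, and Il1a, Lif and Ptgs2, which were higher, can be compared in the letters that inflammatory transcription factors are known to read. RefSeq promoter windows (GRCm38.p6), running from 250 bases before to 50 after a transcript start, held 7 of the 8 measured members, all but Nos2. Il1rn had 3 windows, of which the upstream one and the last downstream one are given. Capitals mark exact matches, on either strand, to any of 8 motifs: NF-kB (GGNNTTNCC), AP-1 (TGANTCA), CRE (TGACGTCA), C/EBP (TTGCNNAA), ISRE (GAAANNGAA), GAS (TTCNNNGAA), E-box (CACGTG) and the core promoter box named after its letters (TATAAA). Each line runs 5′ to 3′ along the gene's own strand.
Il1rn, upstream start, chr2:24336610-24336909, plus strand: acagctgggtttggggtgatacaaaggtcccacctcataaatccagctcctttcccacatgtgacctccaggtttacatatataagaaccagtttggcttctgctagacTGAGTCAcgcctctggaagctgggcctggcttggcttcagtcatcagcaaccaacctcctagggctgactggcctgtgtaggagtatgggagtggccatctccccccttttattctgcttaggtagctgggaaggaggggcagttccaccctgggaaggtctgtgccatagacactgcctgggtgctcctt
Il1rn, downstream start, chr2:24345121-24345420, plus strand: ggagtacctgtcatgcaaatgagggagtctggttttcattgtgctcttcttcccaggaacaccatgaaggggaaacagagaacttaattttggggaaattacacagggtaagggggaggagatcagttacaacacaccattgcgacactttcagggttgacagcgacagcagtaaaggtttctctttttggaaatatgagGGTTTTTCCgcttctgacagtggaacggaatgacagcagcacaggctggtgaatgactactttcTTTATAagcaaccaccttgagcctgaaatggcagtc
Il1a, chr2:129309923-129310222, minus strand: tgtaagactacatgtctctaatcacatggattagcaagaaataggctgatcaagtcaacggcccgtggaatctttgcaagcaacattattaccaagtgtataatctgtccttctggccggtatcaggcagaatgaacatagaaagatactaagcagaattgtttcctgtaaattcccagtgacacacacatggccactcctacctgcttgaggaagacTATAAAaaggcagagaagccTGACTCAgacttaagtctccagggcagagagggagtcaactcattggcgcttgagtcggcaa
Il6, chr5:30012864-30013163, plus strand: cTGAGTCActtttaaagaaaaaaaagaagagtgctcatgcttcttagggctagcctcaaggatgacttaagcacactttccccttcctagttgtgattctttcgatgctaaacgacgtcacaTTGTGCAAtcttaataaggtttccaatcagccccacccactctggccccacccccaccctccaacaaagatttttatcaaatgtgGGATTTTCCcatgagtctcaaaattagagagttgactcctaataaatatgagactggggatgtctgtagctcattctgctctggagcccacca
Lif, chr11:4257318-4257617, plus strand: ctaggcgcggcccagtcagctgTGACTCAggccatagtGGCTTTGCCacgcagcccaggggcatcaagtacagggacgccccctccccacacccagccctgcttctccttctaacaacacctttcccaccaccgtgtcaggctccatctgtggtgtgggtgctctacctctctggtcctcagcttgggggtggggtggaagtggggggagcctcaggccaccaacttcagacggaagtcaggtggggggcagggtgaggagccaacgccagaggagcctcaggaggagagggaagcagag
Ptgs2, chr1:150099781-150100080, plus strand: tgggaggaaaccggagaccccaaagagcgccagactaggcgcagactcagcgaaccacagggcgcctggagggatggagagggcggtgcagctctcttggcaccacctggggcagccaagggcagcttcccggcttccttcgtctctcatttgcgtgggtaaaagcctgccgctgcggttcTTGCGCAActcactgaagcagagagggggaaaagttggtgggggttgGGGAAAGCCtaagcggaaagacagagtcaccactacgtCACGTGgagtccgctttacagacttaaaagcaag
The NF-kB letters stood in the downstream Il1rn window shown as GGTTTTTCC and in the Il6 window as GGATTTTCC, among the last 50 bases before the start in each. In the other downstream Il1rn window, not shown, GGTTTTTCC stood after the start, at bases 30 to 38. The Ptgs2 window held NF-kB letters on the other strand, and the Lif window held NF-kB letters too. They were found in 16.0% of 32851 windows of this length. AP-1 letters, held by 7.81% of windows, were in the upstream Il1rn window, in Il1a, in Il6 and in Lif, so these letters occurred in members that were lower and in members that were higher. C/EBP letters, held by 10.8% of windows, were in Il6, in Ptgs2 and in one Il33 window. The Ptgs2 window also held an E-box, the letters bound by the clock factors CLOCK and BMAL1 and held by 7.15% of windows. TATA letters (13.6% of windows) stood close before the start in Il1a, Il1b and one Il33 window. No window of a member held the CRE, ISRE or GAS letters, which 1.79%, 8.56% and 8.3% of windows held. The matches describe these windows only.

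Il1a, an intracellular alarmin that is active without cleavage, was dim in WT, with intensities of 77.5, 78.7 and 74.9 at 18 h and of 83.5, 68.8 and 71.1 at 30 h. In KO it reached 206, 236.3 and 251 at 18 h and 177.1, 134.9 and 123.5 at 30 h. Every KO array was above every WT array, and the 18 h KO arrays were above the 30 h KO arrays. The log2 difference between KO and WT was 1.41 ± 0.122 (SE) at 18 h, with a limma adjusted p of 1.88e-08. At 30 h it was 0.82, with a limma adjusted p of 2.08e-05. Without KO 18 h array 1, the 18 h difference was 1.48. All 4 group means lay below 239.0, within the range of receptor genes, so the level in KO is close to what unexpressed genes give on these arrays.

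Il1b, the secreted ligand that needs caspase 1 for its release, lies next to Il1a on chromosome 2. Its intensities were 99.8, 110.5 and 100 in WT and 98.3, 85.8 and 110.3 in KO at 18 h, and 94.7, 103.4 and 97.9 in WT and 92.7, 93 and 99 in KO at 30 h. The groups overlapped, and all lay in the range of receptor genes. The log2 difference at 18 h was -0.07, with a 95% interval from -0.287 to 0.147 (limma adjusted p = 0.646), and at 30 h it was -0.05 (limma adjusted p = 0.77). A dim probe set can hide a change, so the interval bounds the signal and not the transcript.

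Il33, the ligand of IL1RL1, was measured at 1239.7, 1052.5 and 882.6 in WT and at 690.2, 681 and 742.5 in KO at 18 h. At 30 h it was at 665.9, 683.8 and 737.9 in WT and at 519.9, 522.7 and 475.7 in KO. KO lay below WT on every array at each time, while WT at 30 h overlapped KO at 18 h. The difference was -0.56 ± 0.105 on the log2 scale at 18 h (limma adjusted p = 0.000192) and -0.45 at 30 h (limma adjusted p = 0.002).

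Il1rn, whose product antagonises both interleukin 1 ligands, had intensities of 6024, 5768.3 and 6250.1 in WT at 18 h and of 6196, 6132 and 5625.6 at 30 h. The KO arrays read 36.1, 29.8 and 42.9 at 18 h and 34.2, 56.5 and 56.1 at 30 h. All 6 WT arrays were bright and all 6 KO arrays lay below 81.4, the median of receptor genes. The log2 difference was -6.86 ± 0.126 at 18 h (limma adjusted p = 1.42e-17) and -6.55 at 30 h (limma adjusted p = 2.54e-17). Because KO was at the level of unexpressed genes, the size depends on the offset added before the logarithm: it was -7.35 and -6.94 with an offset of 1, and -5.92 and -5.75 with 64. On chromosome 2, Il1rn lies in a row with the interleukin 36 genes Il36b, Il36g, Il36a and Il36rn and with Il1f10. Of these 5 neighbours, only Il36a, an agonist of the interleukin 36 receptor, was called, at -0.66 at 18 h (limma adjusted p = 6.45e-05) and -0.52 at 30 h (limma adjusted p = 0.00088). Its means were all dim, at 169.8 ± 10.9 (SD, n = 3) in WT and 101.2 ± 3.63 in KO at 18 h.

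Il6, the cytokine that drives the acute-phase response, was read at 1284.1, 1181.5 and 1260 in WT and at 421, 578.7 and 621.7 in KO at 18 h. At 30 h WT stood at 1545.1, 1388.2 and 1544.5 and KO at 360.3, 389.4 and 276. Every KO array was lower than every WT array, and the gap was wider at 30 h. The log2 difference was -1.19 ± 0.132 at 18 h (limma adjusted p = 4.74e-07) and -2.09 at 30 h (limma adjusted p = 2.84e-10). KO 18 h array 1 was the lowest of its group, and without it the 18 h difference was -1.03.

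Lif, a cytokine of the same family named for its effect on leukaemia cells and used to keep mouse embryonic stem cells undifferentiated, moved the other way. It was read at 297.2, 285.1 and 314 in WT and at 906.9, 875 and 857.2 in KO at 18 h. At 30 h the WT arrays stood at 365.7, 399.7 and 474.2 and the KO arrays at 1104.4, 1034.5 and 914.6. No KO array came near the WT range. The log2 difference was 1.51 ± 0.100 at 18 h (limma adjusted p = 4.78e-10) and 1.27 at 30 h (limma adjusted p = 6.4e-09).

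Ptgs2, the inducible cyclooxygenase, was read at 2471.8, 2509.6 and 2668 in WT and at 8683.7, 10342.3 and 10597.3 in KO at 18 h. At 30 h WT had risen to 4093.6, 3961 and 3984.5, and KO stood at 7804.6, 7977.7 and 7648. The 4 groups did not overlap at all. The log2 difference was 1.94 ± 0.0676 at 18 h (limma adjusted p = 4.5e-14) and 0.96 at 30 h (limma adjusted p = 1.35e-09). KO 18 h array 1 was the lowest of its group, and without it the 18 h difference was 2.03.

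Nos2, which makes nitric oxide from arginine, was read at 775.8, 937.9 and 840.4 in WT and at 2301.8, 1885.8 and 1911.7 in KO at 18 h. At 30 h the WT arrays were at 740.3, 769.4 and 883.7, and the KO arrays at 578.8, 519.3 and 469.7. KO lay wholly above WT at 18 h and wholly below it at 30 h, while the WT arrays of both times overlapped. The log2 difference was 1.24 ± 0.107 at 18 h (limma adjusted p = 1.78e-08) and -0.60 at 30 h (limma adjusted p = 0.000165). KO 18 h array 1 was the highest of its group, and without it the 18 h difference was 1.15. Averaged over the times it was 0.32 (limma adjusted p = 0.00145), a value that describes neither time.

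**Figure D2:**
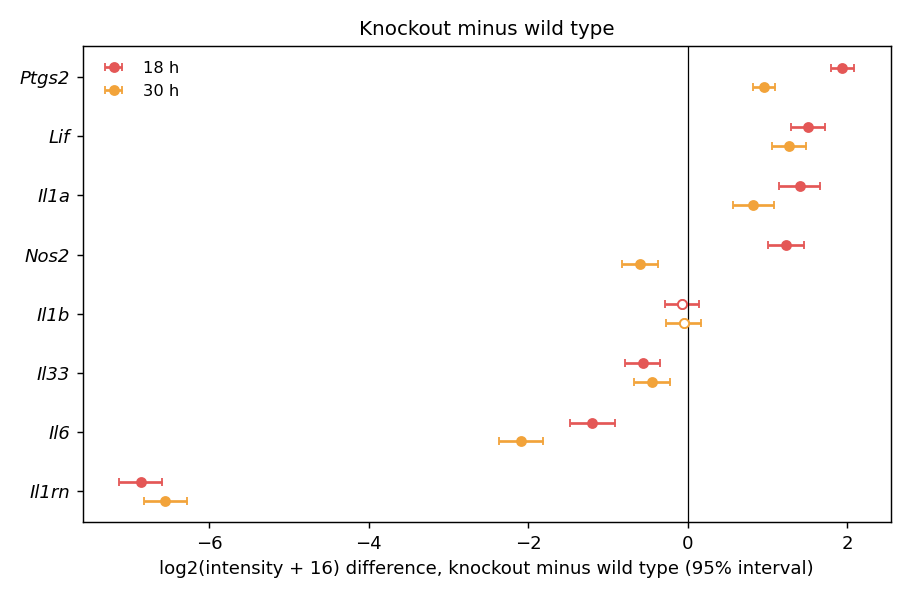
Log2 difference between KO and WT for each of the 8 genes at 18 h and at 30 h, with 95% intervals from limma; hollow points were not called. Il1rn lies near -7 in both comparisons, Il1b lies at 0, and Nos2 is on opposite sides of 0 at 18 h (1.24) and 30 h (-0.60).

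The second question was how each gene moved between 18 h and 30 h in each genotype. In WT, 3 of 8 members changed, 2 up and 1 down, where 2.35% of all genes were called, 1.4% up and 0.948% down. In KO, 5 of 8 fell and none rose, where 27.3% of all genes were called, 14.4% up and 12.9% down. The arrays of both times did not overlap for 4 of 8 members in WT, against 21.8% of all genes, and for 6 of 8 in KO, against 35.8%. The difference between the time effects, KO minus WT, was called for 4 of 8 members, all lower, where 13.4% of all genes were called and 6.8% were called lower. The time comparisons use the same arrays as the genotype comparisons and are no separate evidence. The median log2 time difference of the members was -0.03 in WT and -0.40 in KO, beside -0.03 and 0.00 over all genes. In KO the split of all calls turned with scaling, from 2871 up and 2581 down as deposited to 2623 and 2877 with quantile scaling, 2399 and 2632 with array medians set equal, and 2399 and 3113 with cyclic loess. The share of rises among the calls in WT depended on scaling, at 59.6% as deposited and 79.2% with array medians set equal. For the difference of time effects, the share of higher calls was 49.3% as deposited, 27.9% with array medians set equal, 35.9% with cyclic loess and 40.5% with quantile scaling.

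Ptgs2 moved in opposite directions: it rose by 0.65 on the log2 scale in WT (limma adjusted p = 6.72e-05) and fell by 0.33 in KO (limma adjusted p = 0.00112), or by 0.42 without KO 18 h array 1. The difference of these effects was -0.98 (limma adjusted p = 9.33e-06). Nos2 fell by 1.93 in KO, or 3.8-fold (limma adjusted p = 5.53e-09), and differed by -0.09 in WT (limma adjusted p = 0.788). Its difference of effects was -1.83 (limma adjusted p = 4.21e-06), and without KO 18 h array 1 its fall in KO was -1.83. For both enzymes the genotype difference was larger in size at 18 h than at 30 h, and both lay lower in KO at 30 h than at 18 h.

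Il6 fell by 0.63 in KO (limma adjusted p = 0.00139), or by 0.80 without KO 18 h array 1. In WT its 30 h arrays all lay above its 18 h arrays, but the difference of 0.26 was not called (limma adjusted p = 0.394), and the difference of effects was -0.89 (limma adjusted p = 0.00416). Il1a fell by 0.63 in KO (limma adjusted p = 0.000762), or by 0.70 without KO 18 h array 1, and differed by -0.04 in WT. Its difference of effects, -0.58, had a limma adjusted p of 0.0321 and was not called in 9 of the 12 fits that left out 1 array, where the adjusted p reached 0.0880. All 3 fits that kept the call had left out WT 30 h array 2, KO 18 h array 1 or KO 30 h array 1.

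Il33 fell in both genotypes, by 0.58 in WT (limma adjusted p = 0.00706) and by 0.47 in KO (limma adjusted p = 0.00256), and the difference of effects, 0.12, was not called (limma adjusted p = 0.73). Lif rose by 0.44 in WT (limma adjusted p = 0.0265), a call lost in 4 of the 12 fits that left out 1 array: without WT 18 h array 1 (0.44, limma adjusted p = 0.0893) or array 2 (0.41, 0.126), and without WT 30 h array 2 (0.46, 0.0678) or array 3 (0.34, 0.173). Leaving out an array of the other genotype keeps a time difference within a genotype at the same value. Only its adjusted p can then change, so such fits test the call less. In KO, Lif differed by 0.20 (limma adjusted p = 0.163), with its arrays apart. Il1rn differed by -0.01 in WT and by 0.30 in KO (limma adjusted p = 0.0933), the latter within the range of receptor genes. Il1b differed by -0.06 and -0.04.

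**Figure D3:**
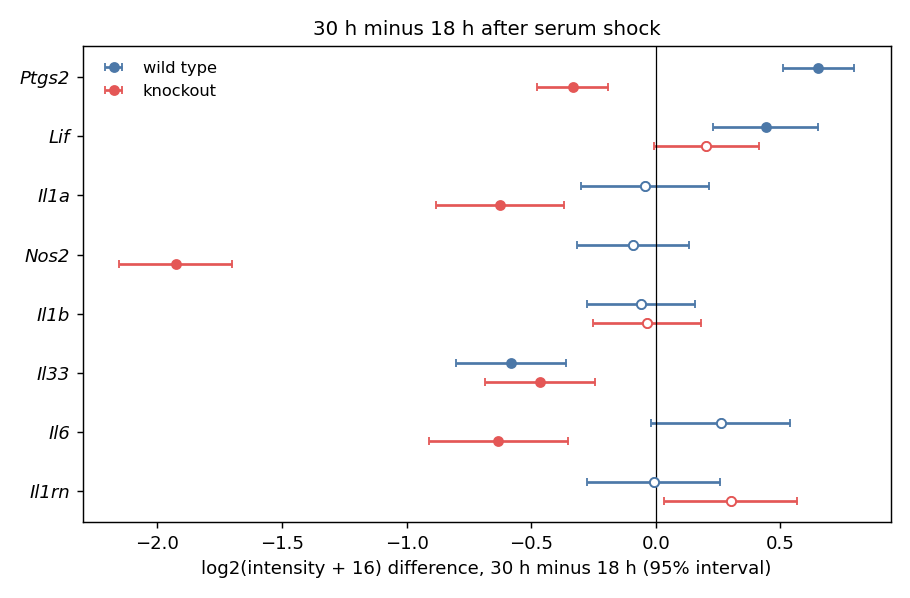
Log2 difference between 30 h and 18 h for each of the 8 genes in WT and in KO, with 95% intervals from limma; hollow points were not called. Ptgs2 rose in WT (0.65) and fell in KO (-0.33), Nos2 fell in KO (-1.93), and Il33 fell in both.

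The rest of the pathway was taken from 7 gene lists, with calls made within the same fit of all genes. A difference given for a list gene is the log2 difference between KO and WT averaged over both times, unless a time or a change with time is named, and each was called by limma (adjusted p under 0.05). The median over all genes was -0.01 at 18 h and 0.03 at 30 h. Beside each list's counts stand the shares of all genes called in KO against WT. These were 20.1% higher and 25.4% lower at 18 h, and 18.2% higher and 21% lower at 30 h. Without KO 18 h array 1, none of the list counts of KO against WT at 18 h or 30 h given below differed by more than 1. In the list of other interleukin 1 family ligands and receptors, 15 genes were measured. At 18 h, 2 were higher and 3 lower in KO, and at 30 h 4 were higher and 2 lower, with medians of 0.01 (-0.05 without KO 18 h array 1) and 0.09. Il1rap, the accessory chain, was higher: it was read at 819.5, 773.2 and 631 in WT and at 1320.8, 1902 and 1655.8 in KO at 18 h, and at 672.4, 671.7 and 691.2 in WT and 959.2, 1025.8 and 984.3 in KO at 30 h. Its KO arrays were above the WT arrays at each time, with a log2 difference of 0.82 averaged over the times (limma adjusted p = 9.14e-08). Il1rap fell by 0.69 in KO between the times. Il18, a further inflammasome-dependent cytokine, was higher by 0.53 at a dim level (150.0 ± 30.2 in KO and 83.9 ± 2.82 in WT at 30 h). By single times, Il18 was called at 30 h (0.72) and not at 18 h. Il1rapl1, a family member best known from synapses, was lower by 0.72 at a dim level, and Il18rap, the accessory chain of the interleukin 18 receptor, rose by 0.52 with time in KO.

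Among 15 genes of interleukin 1 processing and the inflammasome, 2 were higher and 6 lower in KO at 18 h, and 2 were higher and 7 lower at 30 h, with medians of -0.13 and -0.08. Aim2, a sensor of cytosolic DNA that assembles an inflammasome, was read at 1701 ± 176 in WT and a dim 176.6 ± 44.5 in KO at 18 h. It differed by -3.31 averaged over the times. Serpinb1a, an inhibitor of neutrophil proteases and inflammatory caspases, differed by -3.32 on average. It fell by 2.29 with time in KO, from 660.2 ± 85.3 to a dim 122.8 ± 23.5. Capn1 and Capn2, calpains of the protease family known to process the interleukin 1 alpha precursor, were higher by 0.36 and 0.31. By single times, Capn1 was called at 30 h (0.50) and not at 18 h (0.22). Txnip, a thioredoxin-binding protein that can bind NLRP3, fell by 2.94 with time in KO. Its 18 h KO arrays were spread, at 3111.2, 7353.5 and 7169.2, against 635.3 to 778.0 at 30 h, and KO 18 h array 1 lay toward the 30 h arrays; without it Txnip fell by 3.34.

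Of 24 listed genes of interleukin 1 receptor signalling, 21 were measured; 3 were higher and 9 lower in KO at 18 h, and 3 were higher and 10 lower at 30 h, with medians of -0.18 and -0.15. Myd88, the adaptor of the receptor, was read at 3687.3, 3514.6 and 4224.5 in WT and at 1010.6, 838.1 and 809 in KO at 18 h. At 30 h it was at 3661.7, 3846.8 and 4123.9 in WT and at 1743.3, 1429.8 and 1322.3 in KO. All KO arrays lay below all WT arrays, the averaged log2 difference was -1.73, and Myd88 rose by 0.74 with time in KO. Peli2, a ubiquitin ligase of the IRAK complex, was lower by 1.65, at 469.4 ± 42.3 in KO and 1417 ± 108 in WT at 18 h. Mapkapk2, the kinase downstream of p38 that stabilises cytokine mRNAs, was higher by 1.18, at 4061 ± 314 in KO and 1618 ± 151 in WT at 18 h, and Map3k8 was higher by 0.58. Rela, a subunit of NF-kB, rose by 0.31 with time in WT (limma adjusted p = 0.0486), a call lost in 7 of the 12 fits that left out 1 array and under all 3 other scalings.

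Of 28 NF-kB feedback and target genes, 27 were measured; 14 were higher and 6 lower in KO at 18 h, and 12 were higher and 11 lower at 30 h, with medians of 0.29 and 0.18. Mmp3, the matrix protease stromelysin 1, was higher by 2.52 on average and rose by 0.93 with time in KO, from 600.7 ± 83.0 to 1162 ± 195, while WT was dim at 135.9 ± 12.3 and 127.7 ± 12.2. Birc3, an inhibitor of apoptosis, was higher by 1.98, at 600.8 ± 84.3 in KO and a dim 137.0 ± 24.8 in WT at 18 h. Saa3, an acute-phase apolipoprotein, was lower by 3.08, at 502.9 ± 130 in KO and 5161 ± 777 in WT at 18 h. Ccl7, a monocyte chemokine, was lower by 1.17, so genes of one list lay on opposite sides. Csf2 (GM-CSF) fell by 1.29 with time in KO, from 340.8, 723 and 841.2 at 18 h to between 220.4 and 257.3 at 30 h, where its level was dim in 2 of the 3 arrays. Without KO 18 h array 1, the lowest of its group, Csf2 fell by 1.68. In WT, Ccl2 rose by 0.36 and Nfkbiz fell by 0.29 with time, calls lost in 6 and 10 of the 12 fits that left out 1 array. Both moved the same way in KO, Ccl2 by 0.36 and Nfkbiz by -0.58, calls kept in all 12 fits.

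Of 21 genes of the interleukin 6 family and its signal, 18 were measured; 3 were higher and 6 lower in KO at 18 h, and 4 were higher and 8 lower at 30 h, with medians of -0.10 and -0.08. Osmr, the oncostatin M receptor, was lower by 2.33, at 8886 ± 532 in WT and 1436 ± 552 in KO at 18 h. Its rise of 0.53 with time in KO was 0.82 without KO 18 h array 1, and the call was lost in 3 other fits that left out 1 array, those without KO 18 h array 2 or 3 or KO 30 h array 3. Il6ra, the ligand-binding receptor of interleukin 6, was lower by 0.90 and rose by 0.67 in KO, from 488.9 ± 133 to 769.3 ± 17.4, or by 0.87 without KO 18 h array 1. Cntfr, the receptor of ciliary neurotrophic factor, was higher by 1.17, and Jak2, a kinase of cytokine receptors, by 0.72. Stat3, the transcription factor of this pathway, was lower in KO by 0.55 and fell by 0.29 with time in KO. Both calls were kept in all 12 fits that left out 1 array. In WT, Stat3 fell by 0.28 with time, a call lost in 4 of these 12 fits.

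Of 23 prostaglandin genes, 22 were measured; 2 were higher and 7 lower in KO at 18 h, and 1 was higher and 6 lower at 30 h, with medians of -0.04 (up to 0.02 under other scalings) and -0.02. Ptges, the inducible synthase that turns the product of COX-2 into prostaglandin E2, was read at 1441.8, 1379.6 and 1431.6 in WT and at 502.3, 502.7 and 467.4 in KO at 18 h. At 30 h it was at 1122.7, 1100 and 1233 in WT and at 368.2, 287.8 and 273.3 in KO. Its KO arrays were all lower, by 1.68 on average, where those of Ptgs2 were all higher. Ptgfr, the receptor of prostaglandin F2 alpha, was lower by 4.14, from 1174 ± 61.6 in WT to a dim 48.2 ± 1.32 in KO at 18 h. Ptger4, a receptor of prostaglandin E2, was higher by 1.41, at 487.7 ± 127 in KO and a dim 139.2 ± 10.3 in WT at 18 h. Alox5ap, the partner of 5-lipoxygenase, was higher by 0.47 on average, but was called at 18 h (0.75) and not at 30 h.

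**Figure D4:**
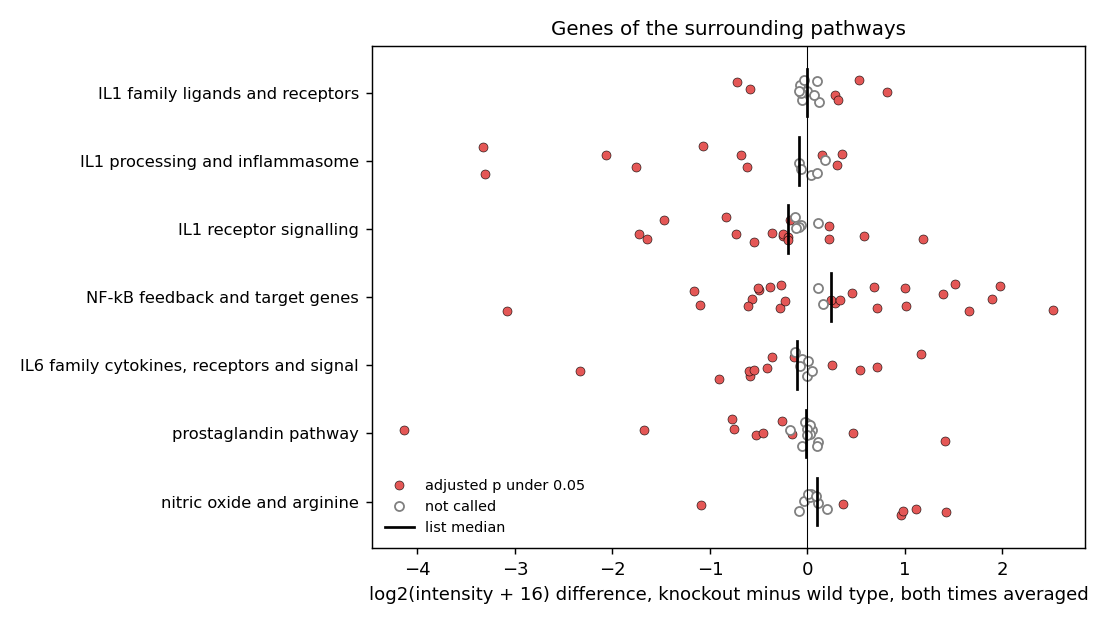
Log2 difference between KO and WT, averaged over both times, for every measured gene of the 7 lists. Red points were called by limma, hollow points were not, and the short line is the list's median. Aim2 (-3.31), Serpinb1a (-3.32), Saa3 (-3.08) and Ptgfr lie lowest in their lists, and Mmp3 (2.52) lies highest in its own.

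Of 15 genes of nitric oxide and arginine metabolism, 14 were measured; 7 were higher and 1 lower in KO at 18 h, and 5 were higher and 2 lower at 30 h, with medians of 0.26 and 0.09. The 1 lower gene at 18 h, Slc7a2, was not called under any of the other scalings, nor without KO 18 h array 1 or WT 18 h array 2. With time in KO, 1 of the 14 genes rose and 6 fell, where 14.4% of all genes rose and 12.9% fell. The difference of time effects was called for 5 of the 14, all lower, where 6.8% of all genes were called lower. Slc7a2, an arginine transporter, stood at 691.8 ± 42.9 in KO at 18 h and a dim 203.3 ± 14.7 at 30 h. It fell by 1.69 in KO, beside 835.1 ± 80.3 and 817.9 ± 48.6 in WT. Slc7a1, the other major arginine transporter, rose by 0.59 in WT and fell by 0.54 in KO, and its WT call was lost without WT 30 h array 3. Ddah1 and Ddah2, enzymes that degrade the endogenous inhibitors of nitric oxide synthases, were higher by 1.42 and 1.11 on average and fell by 0.44 and 0.73 in KO. Gch1, which supplies the cofactor tetrahydrobiopterin to nitric oxide synthases, was singled out after its values were seen. It was read at 79.4, 81.9 and 82.5 in WT and at 239.4, 278.9 and 311 in KO at 18 h, and at 87, 87.6 and 84.6 in WT and 130, 127.7 and 95.5 in KO at 30 h. It was above the range of receptor genes in KO at 18 h alone among the 4 groups, and fell by 1.13 in KO. Nosip, a partner of nitric oxide synthases, rose by 0.37 in KO, a call lost without KO 30 h array 1 (0.29, limma adjusted p = 0.0525). Over the same arrays, the macrophage marker Cd68 stood at 1314.9, 2635.3 and 2964.1 in KO at 18 h and between 685.4 and 1213.6 in the other groups. KO 18 h array 1 had the highest Nos2 of its group but the lowest Gch1 and Cd68. Of the 11 macrophage and blood cell markers, 1 was called higher in KO at 18 h, 0 lower and 10 were not called. Over all genes, 20.1% were called higher and 25.4% lower. Cd68 is part of the list sum that follows, so that sum is no separate sign. The macrophage and blood cell list summed to 3011 to 4639 in KO at 18 h, 2772 to 2880 in WT at 18 h, 2507 to 2595 in WT at 30 h and 2493 to 2672 in KO at 30 h, with Ptprc, Adgre1 and Csf1r dim in all groups; its part in the values of Nos2 and Gch1 was not tested.

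**Figure D5:**
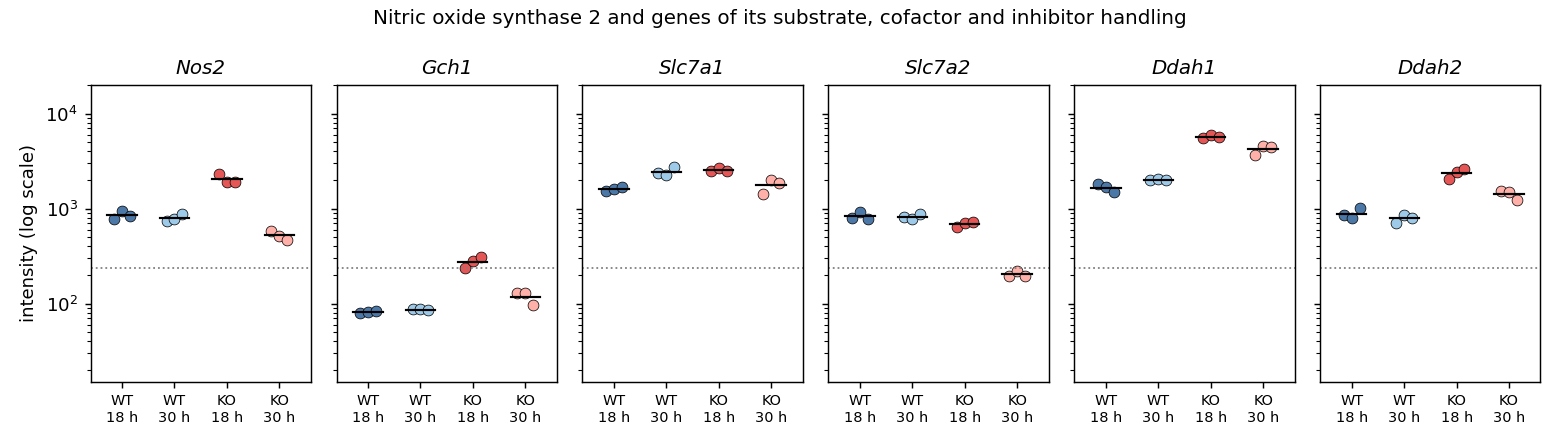
Intensity (log axis) of Nos2 and 5 genes of arginine and nitric oxide metabolism on the 12 arrays, by genotype and time; points are arrays and lines are means of 3. Nos2, Slc7a2 and Gch1 were lower in KO at 30 h than in KO at 18 h on every array, while WT stayed between 740.3 and 937.9 for Nos2.

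The genes whose pattern over the 12 arrays was most like that of each called member are given as a description, since the points share the genotype difference. For Il1rn they were Dhx58, Pcsk6 and Kctd12b, the first with a Pearson r of 0.999, and 1033 of 13950 genes had an r above 0.95. For Il6 they were Perp (r = 0.992), Depdc7 and Zfand2a, for Lif Xrcc1 (r = 0.994), Tubb6 and Mllt1, for Ptgs2 Psat1 (r = 0.992), Tnfaip1 and Actn4, and for Il1a Nbl1 (r = 0.985), Sh3bp4 and Syngr1. Between 296 and 419 genes passed 0.95 for each of these 4. For Nos2 only Angptl6 did (r = 0.957), followed by Fam221a and Dok4, and for Il33 only Fbxo3 (r = 0.974), 9530068E07Rik and Trdmt1. Few genes thus passed this r for Nos2 and Il33, and many for Il1rn. Such a count also depends on how large a gene's differences are beside its spread among arrays. It does not by itself tell how common a pattern was.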

How the data were processed

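Total RNA from 12 samples was hybridised to Affymetrix arrays, 3 per group. The deposited values are probe set intensities on a linear scale, made by the authors; the submitters' processing notes name PLIER 2.0 and Affymetrix Expression Console 1.1, and further steps are not given in the sources used here. Of 35557 probe sets, 21789 carried 1 gene symbol in the platform annotation, 1621 several and 12147 none; 21698 matched RefSeq by Entrez identifier. The probe set of highest mean was kept per gene (19938 genes). The deposited intensities were turned into log2(intensity + 16), and 4 group means were fitted over 12 arrays with limma 3.58.1 (R 4.3.3; lmFit, eBayes with intensity trend, two-sided, Benjamini-Hochberg over all genes, no filter). Probe sets were not compared with each other. The members, lists and tests were chosen with earlier results of these data known. Named from each list were up to 2 called genes with the largest rise and fall in KO, and the called genes with the largest change with time in each genotype; from the whole table, the 3 genes most like each called member among those above the 30th percentile of means. The fit was tested on simulated data. Alternatives were other offsets, scalings, filters, trend settings, samples and a replicate block; list counts and named genes under other scalings or without single arrays were added after seeing the data. The number of arrays limits the precision.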

Additional observations from a re-analysis of the deposited data

Results flagged for a closer look

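The results below were singled out because their change from 18 h to 30 h differed between the genotypes in limma's interaction test; each value is the log2 time effect in KO minus that in WT. Among the members these were Nos2 (-1.83), Ptgs2 (-0.98), Il6 (-0.89) and Il1a (-0.58), all 4 lower, with Ptgs2 moving in opposite directions in KO and WT. The Il1a call was lost in 9 of the 12 fits that left out 1 array, and its means were dim in all groups. Of the nitric oxide genes, Slc7a2 (-1.66), Gch1 (-1.21), Slc7a1 (-1.13), Ddah1 (-0.74) and Ddah2 (-0.57) were lower too, and the Ddah2 call was lost in 7 of the 12 fits that left out 1 array. Of the inflammasome genes, Txnip (-2.68) and Serpinb1a (-2.41) had the lowest values. Csf2 (-1.57), Cntfr (-0.58), Alox5ap (-0.55) and Il1rap (-0.58) were lower, the last with its call lost in 7 of the 12 fits. Values above 0 were seen for Mmp3 (1.01), Il6ra (0.73), Myd88 (0.72) and Osmr (0.69), and the Osmr call was lost in 10 of the 12 fits. Across all genes, 13.4% were called in this test.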

How the results depend on the processing

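The 8 members were refitted under 23 settings. All 14 genotype calls kept their direction and their side of the threshold throughout. Of 33 called values over the 6 comparisons, 31 did so, the exceptions being Lif with time in WT and the difference of time effects for Il1a, both given above; no called value changed sign. Il1a and Il1b dropped out under both filters on dim genes, which left 6 members called in each genotype comparison, 4 with time in KO and 3 for the difference of effects. Il1rn with time in KO was called without KO 18 h array 3 (0.39, limma adjusted p = 0.0447) or KO 30 h array 1 (0.48, limma adjusted p = 0.0033), and so was its difference of effects without the latter (0.48, limma adjusted p = 0.0366).

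The number of genes called with time in WT was 468, but 263 without the intensity trend, 796 when only the compared groups were fitted, and 129 to 847 when 1 array was left out, the highest without KO 18 h array 1. For the difference of time effects it was 2674, and 1731 to 4022 with 1 array left out, the lowest without KO 18 h array 2 and the highest without KO 18 h array 1.

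Replicate numbers were not shown to pair the arrays: the 18 same-numbered pairs had deviations correlated from -0.393 to 0.339, and 3 of 12 arrays correlated best with their own number. With the replicate number as a block, limma called 8925, 7655, 9870, 401, 5303 and 2539 genes (KO against WT at 18 h, at 30 h and averaged, time in WT, time in KO, difference), against 9063, 7822, 10042, 468, 5452 and 2674 without the block, and 7, 7, 7, 3, 5 and 4 members, as without it.

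Sign changes touched uncalled values near 0. With time in WT, Il1a was 0.00703 and Il1b 0.00689 under quantile scaling, Il1rn 0.0637, Il1a 0.0272 and Il1b 0.0134 with array medians set equal, and Il1rn 0.0188, Il1a 0.0248 and Il1b 0.00736 under cyclic loess. The difference of effects for Il1b was -0.0519, -0.0682 and -0.0371 under these 3 scalings. With 1 array left out, Il1b ranged from -0.146 to 0.00981 at 18 h, from -0.116 to 0.0401 with time in KO and from -0.0577 to 0.0980 for the difference. Over the same fits, Il1rn with time in WT ranged from -0.0373 to 0.0362, Il1a from -0.114 to 0.000595, and the difference for Il33 from -0.00273 to 0.239. The cause of these shifts was not tested.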

Other observations

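Markers of other cell types that the results above do not use also differed between the genotypes, in both directions. Dsp (desmoplakin, a desmosome protein) was higher in KO, at 1088 ± 97.6 (SD, n = 3) against a dim 88.2 ± 14.2 in WT at 18 h. Trp63, a transcription factor of basal epithelium, was lower, at a dim 67.7 ± 37.3 in KO against 2255 ± 129 in WT. Of the 8 epithelial markers, only Cdh1 and Epcam were dim in all 4 groups, and the keratins Krt5, Krt8, Krt14 and Krt18 were not. At 18 h the epithelial list summed to 3589.5 to 3728.9 in WT and 2521.4 to 2704.5 in KO. At 30 h it summed to 3110.8 to 3213.2 in WT and 2172.2 to 2539.9 in KO. Kdr, a receptor for VEGF, stood at 290.1 ± 60.7 in KO at 18 h and was dim in the other 3 groups, as were 6 further endothelial markers in all groups, Pecam1 and Cdh5 among them. Of 8 mast cell markers, 7 were dim throughout.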
